A study of Mus musculus with 8 samples.

Results

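Hmgcs1, Idi1, Fdps and Sqle encode enzymes of sterol synthesis and are 4 of the 2000 genes in a single-cell expression table of mouse liver tumours. They were taken by name, as the enzymes of the mevalonate and early sterol pathway followed here, and are described across cell classes gated on marker genes. The tumours grew from Hepa1-6, an established mouse hepatoma cell line, in mice of 4 groups. The groups were WT with PBS, WT with PD1 antibody, Soat1 knockdown with PBS and Soat1 knockdown with PD1 antibody, all given intraperitoneally, and each group has a cDNA and an oligo library entry (8 entries in all). Soat1 encodes an enzyme that esterifies cholesterol for storage, and PD1 is an inhibitory receptor of T cells. The titles call the Soat1 change a knockout where the genotype field has knockdown. Whether it was made in the tumour cells or the host, and how many mice, clones or pooled tumours stand behind a group, is not given in the sources used here. Cells were dissociated from fresh tumour and their 3′ transcript ends were counted in droplets, so each cell is one droplet barcode and each UMI (unique molecular identifier) one captured transcript.

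The table holds 53528 cells in 6 sets, named by the last number of the cell name. Nothing links a set to one of the 4 groups, so the table is treated as 1 pooled sample: no comparison of genotype or treatment and no p-value was possible. In set 1 (9370 cells, median 11098.5 UMIs) whole UMI counts could be recovered, and levels are UMIs per 1000000 UMIs (CPM) with exact 95% Poisson intervals. These intervals cover counting error only and say nothing of the spread between tumours. In sets 2 to 6 the natural-log values had been altered further, with 22.9% to 33.4% of them below 0. They are used to see whether a direction recurs. The step that altered them is not given in the sources used here. Whether it drew on set 1 is not known, so a direction or correlation that recurs is not independent support. Ranges of means and of correlations over the sets describe the values as deposited and are not a spread between independent tumours. Means on the deposited scale were not corrected for depth. The share of all genes with one direction in 6 of 6 sets, or with means that do not overlap, was not computed. The marker gates put 26683 cells in the hepatoma class (5788 in set 1), 9759 in CD8 T, 313 in regulatory T, 3753 in macrophage, 542 in dendritic and 802 in fibroblast, while 9480 cells (17.7%) fell in no gate. Defining markers were high in the classes they name. In set 1 the summed T cell list was 4881 CPM in CD8 T cells and 34.2 CPM in hepatoma cells, the fibroblast list was 31493 CPM in fibroblasts and 32.1 CPM in hepatoma cells, and Afp was present at 9.03% to 16.6% of its hepatoma level in the 5 other classes.

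Cholesterol is built from acetyl units through mevalonate. Hmgcs1, the cytosolic HMG-CoA synthase, makes the precursor that HMG-CoA reductase turns into mevalonate. Idi1 isomerises isopentenyl diphosphate, Fdps joins these units into farnesyl diphosphate, which also feeds protein prenylation, and Sqle, squalene epoxidase, starts the oxygen-dependent part of the pathway that leads to lanosterol. The genes are known targets of SREBP2, a membrane-bound transcription factor released when sterols in the endoplasmic reticulum are low. Liver is a main site of this synthesis, and Hepa1-6 cells derive from it.

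In the GENCODE M21 annotation of GRCm38, Hmgcs1 lies at chr13:119690379-119708260 on the plus strand, Idi1 at chr13:8885501-8892451 on the plus strand, Fdps at chr3:89093588-89101959 on the minus strand and Sqle at chr15:59315077-59331192 on the plus strand. Each is protein coding. Fdps overlaps Gm43738, a protein-coding model at chr3:89081939-89101099 that spans Rusc1 and most of Fdps on the same strand, and 26.7% of the exonic bases of Fdps belong to both models. Transcripts of Fdps can therefore be counted under Gm43738, which is in the table, and its values are given beside those of Fdps. On the minus strand Gm48342, an antisense model, lies within Hmgcs1 and Gm48574 lies over the start of Idi1, and whether counting used the strand is not given in the sources used here.

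RefSeq promoter windows were at hand for 2 of the 4 genes, Hmgcs1 and Idi1. The 250 bases before the Hmgcs1 start (GRCm38.p6, chr13:119690101-119690350, plus strand) are shown. Of the 2 windows this is the one with a match to the sterol regulatory element, and it was picked for that. Capitals mark matches on either strand to 4 motifs: the sterol regulatory element TCACNCCAC, the NF-Y box CCAAT, the GC box GGGCGG and the E-box CACGTG.
Hmgcs1: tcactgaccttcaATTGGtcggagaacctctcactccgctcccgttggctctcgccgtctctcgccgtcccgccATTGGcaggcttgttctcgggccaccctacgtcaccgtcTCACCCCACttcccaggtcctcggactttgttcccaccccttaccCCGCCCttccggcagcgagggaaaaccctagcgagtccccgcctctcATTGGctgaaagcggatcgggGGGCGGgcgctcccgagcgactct
The window held 1 sterol regulatory element match, TCACCCCAC, beginning 137 bases before the start, 3 NF-Y boxes (ATTGG as read here) and 2 GC boxes. Of 32851 RefSeq windows of this length, 1.05% held the sterol regulatory element, 33.8% an NF-Y box, 32.7% a GC box, 6.02% the E-box, and 0.326% both of the first 2 motifs. The Idi1 window (chr13:8885356-8885605) held 2 NF-Y boxes and 1 GC box, and no match to the other 2 motifs. The windows are placed by RefSeq starts, which differ from the GENCODE starts given above. The Idi1 window runs past the GENCODE start of Idi1, and its matches lie beyond that start. The Hmgcs1 window ends short of the GENCODE start of Hmgcs1. A match describes the letters and does not show that a factor was bound.

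Hmgcs1, the synthase at the entry to the pathway, was highest in hepatoma cells among the 6 classes. Its level there was 210 CPM (207 to 212), against 117 CPM (103 to 133) in macrophages, 109 CPM (71.8 to 159) in dendritic cells, 77.1 CPM (44.9 to 123) in regulatory T cells, 74.6 CPM (68.3 to 81.3) in CD8 T cells and 65.3 CPM (46.7 to 89.0) in fibroblasts. The intervals of the last 3 overlapped, as did those of macrophages and dendritic cells, so those neighbours could not be ordered. On the deposited scale the set means of hepatoma cells ran from 0.804 to 0.850 (median 0.840), above the highest mean of any of the other 5 classes, 0.435 in macrophages.

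Sqle, the epoxidase, showed the widest separation between hepatoma cells and each of the T cell, dendritic and fibroblast classes. Hepatoma cells held 183 CPM (181 to 185), dendritic cells 60.5 CPM (33.9 to 99.8), macrophages 60.0 CPM (50.2 to 71.2), CD8 T cells 38.7 CPM (34.2 to 43.6), regulatory T cells 31.7 CPM (12.8 to 65.4) and fibroblasts 26.1 CPM (14.9 to 42.4). Set means of hepatoma cells were 0.886 to 0.935, and no set mean in the other 5 classes passed 0.275. The level in fibroblasts was 14.3% of that in hepatoma cells, close to the 9.81% at which the hepatoma transcript Afp was counted in the same fibroblasts. Subtracting hepatoma RNA in proportion to Afp, an added calculation, moved the hepatoma to fibroblast ratio of Sqle from 6.995 to 22.3. The median of the 14 hepatoma markers in fibroblasts was 13.5% of their hepatoma level, so 22.3 rests on the marker used.

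Fdps, the farnesyl diphosphate synthase, was at 62.4 CPM (61.1 to 63.7) in hepatoma cells and 72.6 CPM (43.0 to 115) in dendritic cells, whose intervals overlapped. Regulatory T cells followed at 40.8 CPM (18.7 to 77.5), CD8 T cells at 20.5 CPM (17.3 to 24.1), fibroblasts at 17.97 CPM (8.97 to 32.1) and macrophages at 17.3 CPM (12.2 to 23.7). The dendritic value rests on 18 UMIs in 46 cells. Gm43738 stood at 46.1 CPM in hepatoma cells, 32.3 CPM in dendritic cells, 36.3 CPM in regulatory T cells, 17.6 CPM in CD8 T cells, 16.3 CPM in fibroblasts and 11.8 CPM in macrophages. With both summed, the ratio of hepatoma to dendritic cells was 1.03, against 0.859 for Fdps alone.

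Idi1, the isomerase, had another order. It was at 121 CPM (81.7 to 173) in dendritic cells, 109 CPM (69.7 to 162) in regulatory T cells, 83.1 CPM (76.5 to 90.2) in CD8 T cells and 73.6 CPM (72.2 to 75.1) in hepatoma cells. Macrophages held 57.3 CPM (47.7 to 68.2) and fibroblasts 16.3 CPM (7.83 to 30.0). The first 3 classes overlapped one another, and fibroblasts stood below all others. A cell-by-cell mean gives shallow cells the same weight as deep ones, and on the deposited log scale hepatoma cells had the higher Idi1 mean than CD8 T cells in 6 of 6 sets, by 0.0802 to 0.177, whereas the pooled UMIs of set 1 were slightly lower in them. The order of those 2 classes therefore depends on the scale.

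**Figure D1:**
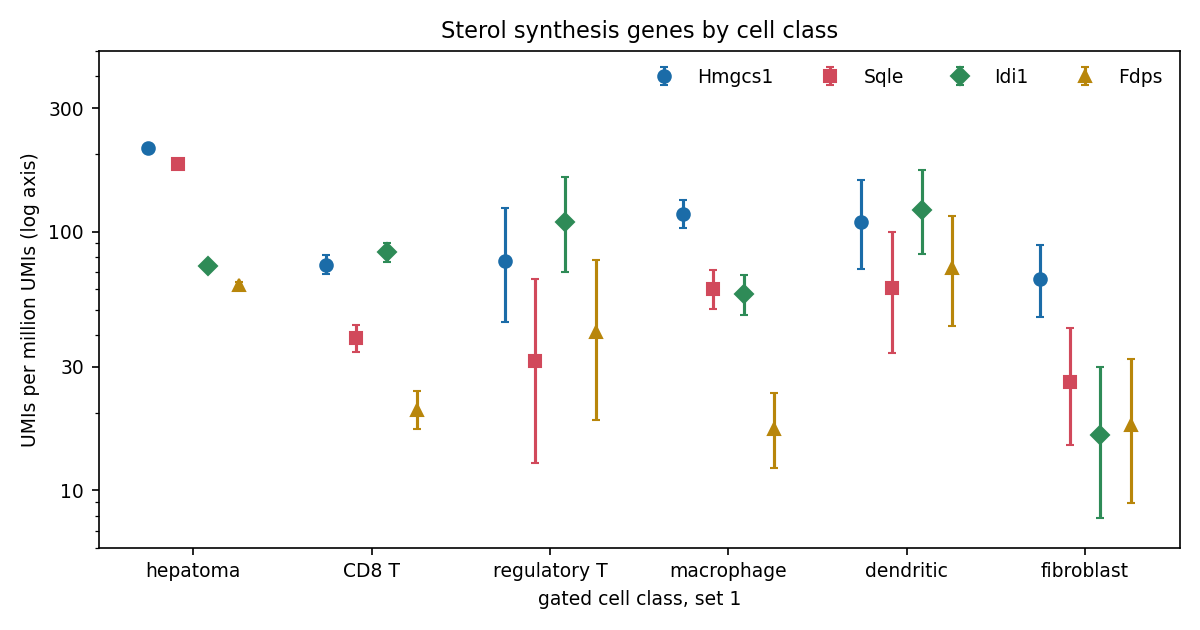
Levels of Hmgcs1, Sqle, Idi1 and Fdps in 6 gated cell classes of set 1, as CPM on a log axis, with exact 95% Poisson intervals for counting error. Hmgcs1 and Sqle are highest in hepatoma cells (210 and 183 CPM), while Idi1 has its highest points in dendritic and regulatory T cells (121 and 109 CPM) with wide intervals.

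A gene is counted as different between 2 classes here where the ratio of CPM was at least 1.5-fold and its exact 95% interval left out 1, among genes with 50 or more UMIs in the 2 classes together. Hepatoma against CD8 T cells, 3 of the 4 genes were counted as higher, where 47.9% of 1630 genes were. The ratios were 4.73 (4.19 to 5.35) for Sqle, 3.04 (2.58 to 3.62) for Fdps, 2.81 (2.58 to 3.07) for Hmgcs1 and 0.886 (0.815 to 0.966) for Idi1. The median log2 ratio of the 4 genes was 1.55, beside 0.83 over all genes tested. Against macrophages, 3 of 4 were higher (background 39.2%), with ratios of 3.61 for Fdps, 3.05 for Sqle and 1.79 for Hmgcs1, while Idi1 at 1.29 (1.08 to 1.54) did not reach the fold. With only the table's genes as the denominator, which shifts each log2 ratio by 0.27, Idi1 was at 1.55 (1.30 to 1.86) and 4 of 4 were counted. Against fibroblasts, 4 of 4 were higher (background 28.6%), from 3.21 (2.36 to 4.49) for Hmgcs1 to 6.995 (4.31 to 12.2) for Sqle. The same change of denominator shifts this comparison by 0.54 and left 4 of 4. After each cell was thinned to 1000 UMIs, 1 of 4 was counted, Sqle at 6.96 (1.92 to 57.6), and Hmgcs1 was at 1.66 (0.872 to 3.64). The background shares hold for the main setting and were not computed for the other denominator or after thinning.

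Against regulatory T cells, 2 of 4 were higher (background 26.1%): Sqle by 5.76-fold (2.79 to 14.3) and Hmgcs1 by 2.72-fold (1.70 to 4.67). Idi1, at a ratio of 0.677 (0.455 to 1.06), and Fdps, at 1.53 (0.804 to 3.34), were not counted, with 24 and 9 UMIs in 34 regulatory T cells. Against dendritic cells, 2 of 4 were higher (background 28.1%) and 1 was lower (background 18.6%). The higher genes were Sqle at 3.02 (1.83 to 5.40) and Hmgcs1 at 1.93 (1.32 to 2.92), and the lower one was Idi1 at 0.608 (0.426 to 0.902). On the deposited scale the Idi1 difference between hepatoma and dendritic cells was positive in 3 sets and negative in 3, from -0.0618 to 0.123, so the other sets do not show one direction. With the table's genes as the denominator (a shift of 0.28) Idi1 was at 0.741 (0.518 to 1.10) and no longer counted, and Fdps turned from 0.859 (0.543 to 1.45) to 1.05 (0.661 to 1.76). Dendritic cells also held more Idi1 than macrophages, by 2.11-fold (1.37 to 3.17) in set 1 and in 6 of 6 sets on the deposited scale. Regulatory T cells had the higher Idi1 mean than CD8 T cells in 6 of 6 sets, by 0.0314 to 0.195. In the UMIs of set 1 the Idi1 ratio of regulatory T to CD8 T cells was 1.31 (0.832 to 1.97), an interval that holds 1. The summed S phase and G2/M genes were 6494 CPM in regulatory T cells and 5245 CPM in CD8 T cells. Their part in the Idi1 difference was not tested. The 5 comparisons of hepatoma cells with another class share those hepatoma cells. Depth moved with the classes: the median was 18621 UMIs per hepatoma cell, 6666 per fibroblast, 5580.5 per regulatory T cell, 5129 per CD8 T cell, 4849 per dendritic cell and 2747 per macrophage. Pooling ratios within quartiles of the UMI total gave 4.75 for Sqle and 0.789 for Idi1 between hepatoma and CD8 T cells. Thinning each cell to 1000 UMIs gave 5.78 (4.09 to 8.44) for Sqle and 1.34 (1.01 to 1.81) for Idi1, so the side of 1 for Idi1 differed between these treatments of depth.

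The balance of the genes differed between classes. For each Idi1 UMI there were 2.85 Hmgcs1 UMIs (2.78 to 2.91) in hepatoma cells and 2.05 (1.65 to 2.55) in macrophages, but 0.898 (0.796 to 1.01) in CD8 T cells, 0.9 (0.515 to 1.57) in dendritic cells and 0.708 (0.357 to 1.37) in regulatory T cells. Fibroblasts were at 4.00 (1.97 to 8.97). Idi1 gave 13.9% of the UMIs of the 4 genes in hepatoma cells and 38.3% in CD8 T cells. This within-class ratio does not use the UMI total as a denominator.

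Hypoxic hepatoma cells held less of these transcripts, least so for Sqle. They are the 25% of hepatoma cells in each set with the highest mean of 8 hypoxia genes, among them Ndrg1, Bnip3, Slc2a1, Ero1l and Vegfa (summed level 5204 CPM against 989 CPM in the other hepatoma cells of set 1). Hmgcs1 was at 107 CPM in 1447 hypoxic cells and 239 CPM in 4341 others, a ratio of 0.446 (0.430 to 0.462). Idi1 was at 34.3 against 84.9 CPM, a ratio of 0.404 (0.379 to 0.430). Fdps was at 37.3 against 69.5 CPM, a ratio of 0.536 (0.504 to 0.571), and Gm43738 at 0.529 (0.491 to 0.568). Sqle differed least, at 155 against 191 CPM and a ratio of 0.812 (0.787 to 0.838).

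By the 1.5-fold rule, 3 of 4 genes were lower in hypoxic cells, where 29.8% of 1582 genes were. The median log2 ratio of the 4 was -1.03, beside -0.14 over all genes tested. Divided by the ratio of Sqle, the ratio of Hmgcs1 was 0.549 (0.523 to 0.576), that of Idi1 0.497 (0.463 to 0.534) and that of Fdps 0.661 (0.616 to 0.708), each with a log-odds interval, so Sqle stood apart from the other 3 beyond counting error. The set means did not overlap between the states for any of the genes. Hmgcs1 means ran from 0.505 to 0.582 (median 0.569) in hypoxic cells and from 0.881 to 0.964 (median 0.927) in the others, and Sqle means from 0.746 to 0.831 (median 0.813) against 0.905 to 0.975 (median 0.942). Idi1 means ran from 0.206 to 0.240 against 0.411 to 0.486, and Fdps means from 0.191 to 0.235 against 0.345 to 0.408. All 4 genes were lower in 6 of 6 sets. For neither pattern was the share of all genes computed, and these means were not corrected for depth.

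Along deciles of the hypoxia score the 4 genes did not follow one course. Hmgcs1 was at 226 CPM in the lowest decile, 265 CPM in the fifth and 262 CPM in the sixth, then 191, 159, 115 and 82.0 CPM from the seventh to the highest decile. Idi1 was lower toward the high end, from 102 CPM in the lowest decile to 83.1 CPM in the fifth and 21.2 CPM in the highest. Fdps went from 80.5 to 63.4 and 30.0 CPM over the same deciles. Sqle stayed between 189 and 206 CPM in the first 6 deciles and was at 149 CPM (142 to 156) in the highest. The 4 genes were lowest in the same decile, and their levels began to differ from the first deciles at different places on the score.

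**Figure D2:**
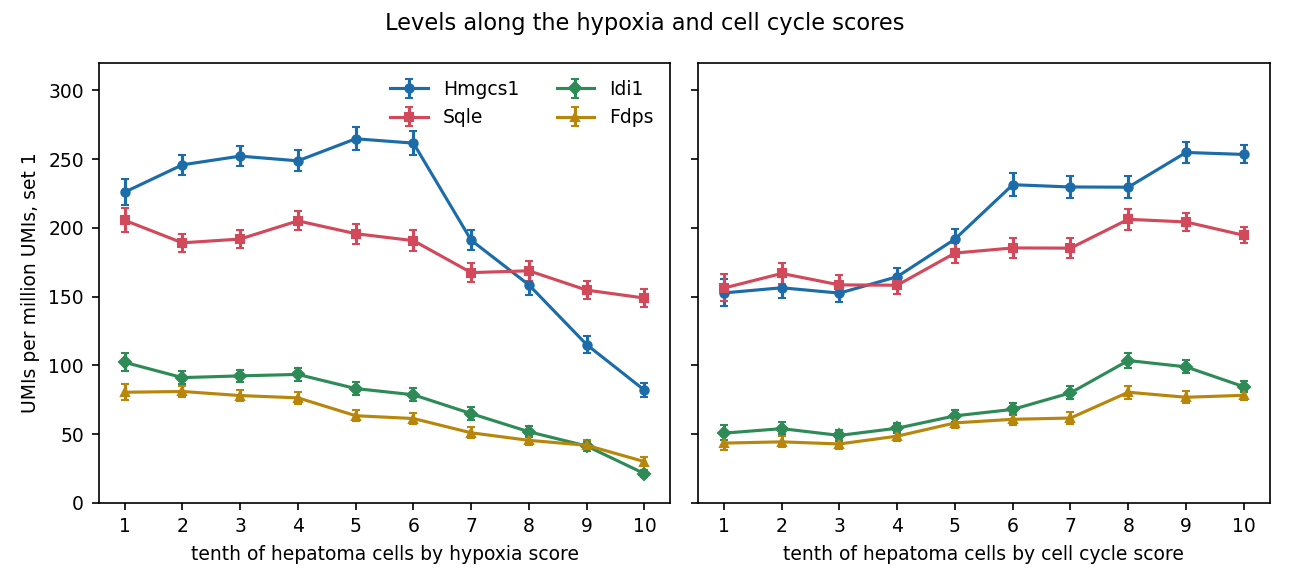
CPM of the 4 genes in set 1 hepatoma cells, split into deciles of the hypoxia score (left) and of the cell cycle score (right), with exact 95% Poisson intervals. Hmgcs1 drops from 262 to 82.0 CPM between the sixth and the highest hypoxia decile while Sqle moves from 191 to 149 CPM.

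Hypoxic cells were rarely cycling: 1.94% of them were among the cycling 25%, against 32.7% of the other hepatoma cells. Among cells that were not cycling the ratio of Idi1 was 0.439, that of Hmgcs1 0.466, that of Fdps 0.595 and that of Sqle 0.841. In the 28 cells that were both hypoxic and cycling, Hmgcs1 was at 121 CPM (93.5 to 154) and Sqle at 192 CPM (157 to 233). Hypoxic cells had a median of 16495 UMIs and the others 19404. Within quartiles of the UMI total the Hmgcs1 ratio was 0.599, 0.597, 0.480 and 0.371 from the shallowest to the deepest quartile, and the Idi1 ratio 0.440, 0.533, 0.502 and 0.302. The summed hepatoma markers were 18302 CPM in hypoxic cells and 14773 CPM in the others, the MHC class II genes 219 and 586 CPM, and the T cell list 34.0 and 34.2 CPM. The part of these in the result was not tested.

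Of the wider sterol synthesis and SREBP target list, 7 of 30 genes were in the table, among them the 4 described, Msmo1 and Idi2. Msmo1, the C4-methylsterol oxidase, was at 0.881 (0.844 to 0.919) in hypoxic cells, nearer to 1 than any of the 4. Idi2 had 8 UMIs in all hepatoma cells of set 1 and could not be compared. From the fatty acid synthesis list only Scd1, the stearoyl-CoA desaturase, was in the table (1 of 12), at 0.994 (0.937 to 1.05). Apoe, a lipoprotein component and one of 4 efflux and esterification genes of 18 present, was at 0.759 (0.753 to 0.765).

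Cycling hepatoma cells held more of the 4 transcripts, by less than 1.5-fold. They are the 25% of cells in each set with the highest mean of 34 S phase and G2/M genes. Hmgcs1 was at 253 CPM in cycling cells and 188 CPM in the others, a ratio of 1.34 (1.31 to 1.37). Idi1 was at 93.0 against 64.0 CPM (1.45, 1.40 to 1.51), Fdps at 77.9 against 54.6 CPM (1.43, 1.37 to 1.49) and Sqle at 201 against 174 CPM (1.15, 1.12 to 1.18). None of the 4 (0 of 4) reached 1.5-fold, which 16.8% of 1582 genes did. At a smaller fold given among the alternatives, 3 of 4 would be counted. The difference of set means was above 0 in 6 of 6 sets for each gene, with 0.197 to 0.281 for Hmgcs1 and 0.126 to 0.145 for Fdps. The share of all genes with that direction was not computed, and these means were not corrected for depth.

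The direction was alike for S phase and G2/M genes scored alone. With the S phase list the ratios were 1.41 for Hmgcs1, 1.62 for Idi1, 1.48 for Fdps and 1.19 for Sqle, and with the G2/M list 1.28, 1.35, 1.41 and 1.14. Cycling cells were deeper, with a median of 26129 UMIs against 16604. They were also less often hypoxic, and among cells that were not hypoxic the ratios were smaller: 1.11 (1.09 to 1.14) for Hmgcs1, 1.20 (1.15 to 1.25) for Idi1, 1.247 (1.19 to 1.30) for Fdps and 1.09 (1.06 to 1.12) for Sqle. Along deciles of the cell cycle score Hmgcs1 went from 153 CPM to 253 CPM, and Idi1 from 50.7 CPM to a peak of 104 CPM in the eighth decile. Msmo1 was at 1.05 (1.02 to 1.09) and Scd1 at 1.02 (0.973 to 1.08).

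In Fabp1-high hepatoma cells Fdps and Sqle were the genes counted, both as higher. Fabp1 encodes the liver fatty acid binding protein, and the state takes hepatoma cells with a Fabp1 value of 1 or more: 168 in set 1 and 637 in all sets, since 82.0% of set 1 hepatoma cells had none. Fdps was at 119 against 60.6 CPM, a ratio of 1.97 (1.80 to 2.15), and Gm43738 at 2.17 (1.96 to 2.40). Sqle was at 273 against 180 CPM, a ratio of 1.52 (1.43 to 1.61). Idi1, at 1.15 (1.03 to 1.27), and Hmgcs1, at 1.03 (0.962 to 1.10), were not counted. By the rule 2 of 4 were higher, where 21.9% of 1582 genes were.

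Which genes were counted changed with depth. From the shallowest to the deepest quartile of the UMI total the Hmgcs1 ratio was 0.913, 1.20, 1.62 (1.42 to 1.85) and 0.847 (0.776 to 0.924). The Idi1 ratio was 0.927, 1.52, 1.41 and 1.02, the Sqle ratio 1.61, 1.76, 1.48 and 1.47, and the Fdps ratio 2.00, 1.54, 2.31 and 1.85. Hmgcs1 was thus counted in the third quartile, where Sqle was not. After thinning to 1000 UMIs Fdps was at 0.907 (0.388 to 1.81) and Sqle at 1.54 (1.13 to 2.06).

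In the Fabp1-high cells Scd1 was at 2.33 (2.11 to 2.56), Apoe at 1.73 (1.71 to 1.76) and Msmo1 at 1.51 (1.39 to 1.63). The sterol exporter subunits Abcg5 and Abcg8 were at 47 and 38 UMIs in the 168 cells against 21 and 30 UMIs in the 5620 others. The other liver markers were also higher, with summed hepatoma markers at 44846 against 14639 CPM. The genes of the table took 21.7% of all UMIs in Fabp1-high cells and 15.0% in the others. With the UMIs of the table's genes as the denominator, which shifts each log2 ratio by -0.53, 0 of 4 were counted: Fdps was at 1.36 (1.24 to 1.49), Sqle at 1.05 (0.990 to 1.11), Idi1 at 0.795 (0.713 to 0.883) and Hmgcs1 at 0.713 (0.667 to 0.761). Hmgcs1 and Idi1 thus changed their side of 1 with the denominator. The share of all genes counted with that denominator was not computed. The set mean differences were above 0 in 6 of 6 sets for each gene, and for Sqle ran from 0.0393 to 0.282. The share of all genes with that direction was not computed, and these means were not corrected for depth.

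**Figure D3:**
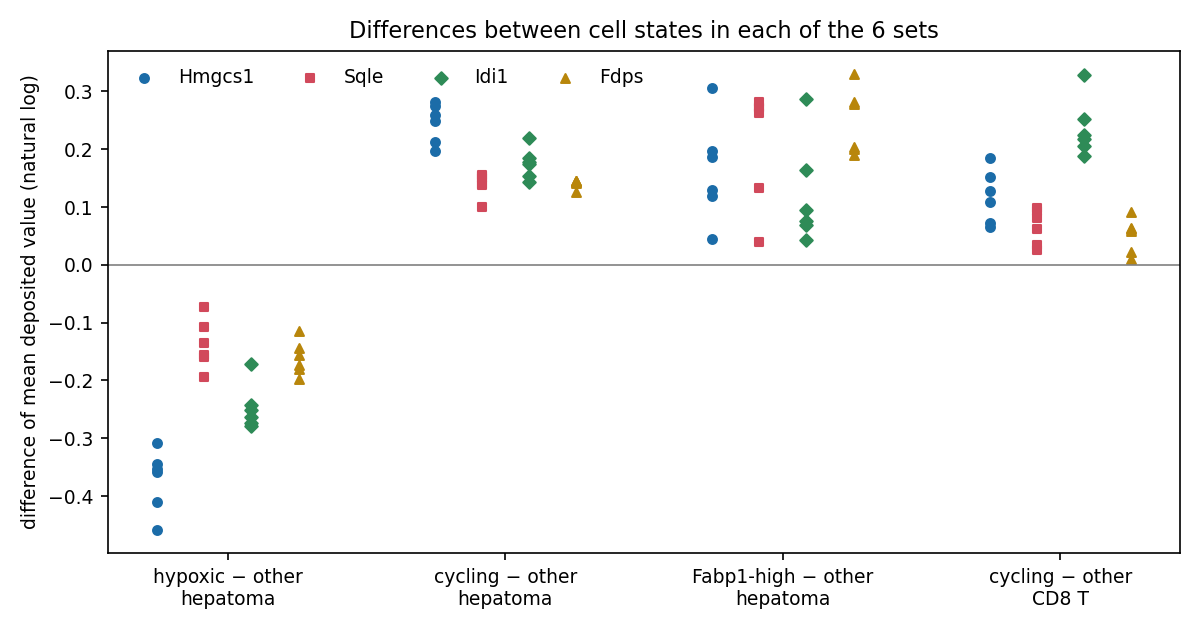
Difference of the mean deposited natural-log value between cell states for the 4 genes, 1 point for each of the 6 sets. Every point of the hypoxic comparison lies below 0, from -0.459 for Hmgcs1 to -0.0737 for Sqle. Every point of the other 3 comparisons lies above 0. These means were not corrected for depth. The median in set 1 was 26129 UMIs in cycling hepatoma cells against 16604 in the others, and 9052.5 against 3994.5 in CD8 T cells. It was 16495 against 19404 for hypoxic cells and 16130.5 against 18684.5 for Fabp1-high cells.

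In CD8 T cells the cycling 25% had more Idi1, by less than 1.5-fold. Idi1 was at 98.5 CPM in 254 cycling cells and 72.3 CPM in 760 others, a ratio of 1.36 (1.15 to 1.61). Fdps was at 1.39 (0.986 to 1.959), Sqle at 1.11 (0.863 to 1.42) and Hmgcs1 at 1.03 (0.865 to 1.24). The Hmgcs1 ratio was 0.981 with the table's genes as the denominator, 0.7505 (0.466 to 1.17) in the third UMI quartile and 0.464 (0.202 to 0.944) after thinning to 1000 UMIs, so it has no settled side of 1. Thinned, Idi1 was at 1.99 (1.11 to 3.53) and was counted. None (0 of 4) was counted at 1.5-fold, where 17.5% of 846 genes were, and the intervals leave room for ratios up to 1.959 for Fdps. Depth moved with the state, with a median of 9052.5 UMIs in cycling cells and 3994.5 in the others, and in the deepest quartile of CD8 T cells the Idi1 ratio was 1.09 (0.888 to 1.35). On the deposited scale Idi1 was higher in cycling cells in 6 of 6 sets, with means of 0.384 to 0.484 (median 0.462) against 0.149 to 0.258 (median 0.223) and no overlap. That scale weights shallow cells fully and was not corrected for depth. The share of all genes with such a gap between the states was not computed.

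The 4 genes varied together from one hepatoma cell to the next. Over 5788 cells of set 1 the Pearson r of the 6 pairs was 0.404 for Hmgcs1 with Idi1, 0.329 for Sqle with Idi1, 0.308 for Idi1 with Fdps, 0.280 for Hmgcs1 with Sqle, 0.270 for Hmgcs1 with Fdps and 0.221 for Sqle with Fdps. The points share one set and its range of depths. The median of the 6 was 0.294 in set 1 and ran from 0.269 to 0.352 over the 6 sets. In every set Hmgcs1 with Idi1 was the closest pair, at 0.344 to 0.451. For each gene the other 3 ranked between 1 and 16 among 1998 genes by r, with a median r over all genes of 0.00411 to 0.00661.

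The size of these correlations moved with depth. The median of the 6 was 0.155 in the shallowest quartile of hepatoma cells, then 0.273, 0.372 and 0.458 in the deepest, where single pairs ran from 0.396 to 0.561. Thinning each cell to 1000 UMIs left a median of 0.0459. In 4251 cells with 10000 UMIs or more the median was 0.364 at full depth and 0.230 after thinning to 10000. In CD8 T cells the median was 0.0181 to 0.107 over the sets, and it was 0.0857 in their deepest quartile, where cells held 8509 UMIs or more. In macrophages it was 0.0391 to 0.0994, and in fibroblasts -0.0346 to 0.0762. In dendritic cells it was 0.321 over the 46 cells of set 1, above the hepatoma median, and 0.0341 to 0.188 in the other sets. The classes were not compared at matched depth.

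**Figure D4:**
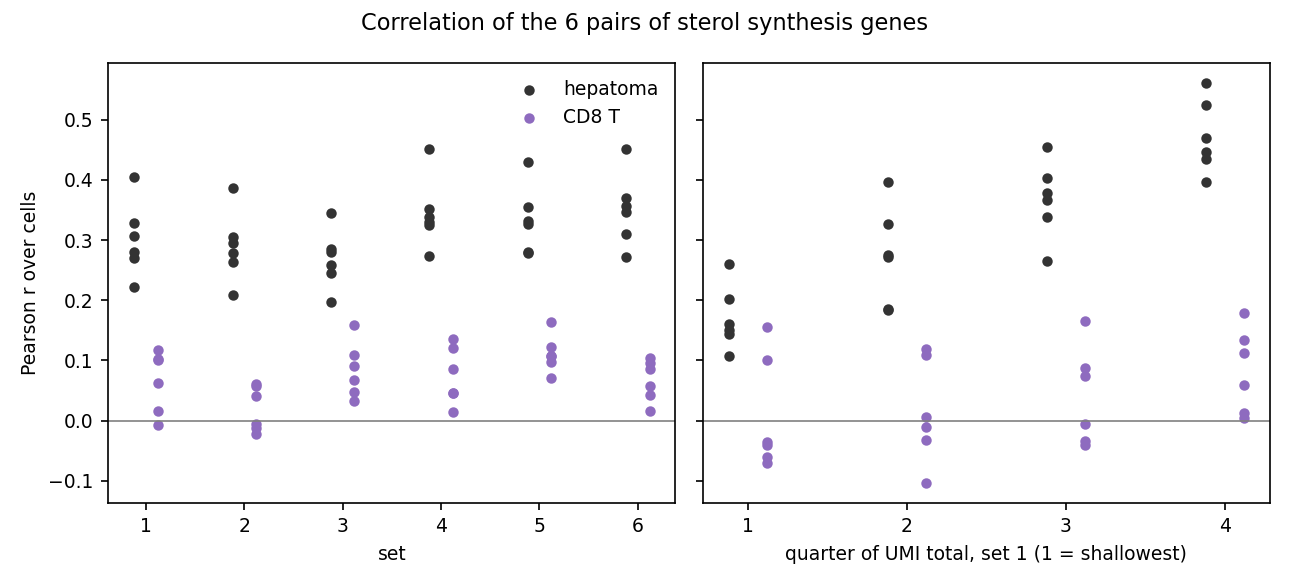
Pearson r over cells for each of the 6 gene pairs (points), by set (left) and by quartile of the UMI total in set 1 (right), in hepatoma and CD8 T cells. Hepatoma points climb from a median of 0.155 in the shallowest quartile to 0.458 in the deepest, and CD8 T points lie between -0.103 and 0.179.

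The genes most like the 4 were ranked by r with the mean of their standardised values over set 1 hepatoma cells, among 1995 genes. Msmo1 came first at 0.469 (0.409 to 0.514 in sets 2 to 6), then Gm43738 at 0.438, which shares exons with Fdps, and Dbi, the acyl-CoA binding protein, at 0.423 (0.421 to 0.553). Fads2, a fatty acid desaturase, followed at 0.401. Further down the first 10 were Fabp5, H2afz, Scd1, Gsta3 and Hspe1, from 0.291 down to 0.275. Of all genes ranked, 47 had an r of 0.2 or more and the median was 0.00503. Apoe ranked 57 at 0.195, while Abcg5 (0.0458) and Abcg8 (0.0310) lay near 0. Abcg5 and Abcg8 had only 68 UMIs each in the 5788 hepatoma cells, too few for their r to be read. At the other end stood Ndrg1 at -0.276, Bnip3 at -0.274 and Slc2a1 at -0.218, which belong to the hypoxia list, then Cited2 at -0.208 and Pgk1 at -0.200. These 5 were chosen after their values were seen. In sets 2 to 6 the r of Ndrg1 ran from -0.332 to -0.219. Taken one by one in set 1, all 8 hypoxia genes had a negative r with each of the 4, from -0.242 for Ndrg1 with Idi1 to -0.00134 for Adm with Hmgcs1.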

How the data were processed

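Deposited values were natural-log values for 2000 genes in each cell of 1 pooled table. The authors aligned reads with STAR 2.7.2b and counted UMIs with PISA, per the series' design text; it names GRCh38, while the submitters' processing notes list GRCh38 and mm10 without roles. All 53528 cell columns map to no labelled sample. Cell names are running numbers, so shared barcodes were not counted. In set 1 UMI totals were recovered from the deposited natural log of 1 plus UMIs per 10000 (100% of cells and of values above 0 came out whole, within 0.01). Gates were means of marker values past a cut; cells past the cut of another class (1405) were left out and no doublet caller was run. Of the named genes, the rule took the members, list genes in the table and the 10 most like them; 1 gene of these is not reported here. H19, a listed hepatoma marker, was far higher in fibroblasts than in hepatoma cells. Members and lists were chosen with earlier results of these data known. Gate cuts, the Fabp1 cut and the 1.5-fold rule were set after seeing the values; the hepatoma limit of the immune gates was tightened after Afp was seen in neutrophils, and a rule of 1.25-fold was tried after the members' ratios were seen and is kept as an alternative. Self-tests on simulated counts were run. Python with numpy 2.4.6 and scipy 1.17.1 was used; Leiden clusters came from leidenalg. Symbols matched GENCODE M21 for 1984 of the 2000 genes.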

Additional observations from a re-analysis of the deposited data

How the results depend on the processing

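Across 740 values under alternative settings, 520 stayed, 219 moved and 1 that the 1.5-fold rule had counted changed its side of 1. To stay meant within the counting interval for a ratio or level, and within 1.5 times the main count for a count. For the median r it meant within 1 SD of that median over the 6 sets (0.0322). The 740 values, and the 464 ratios among them, include ratios that could not move. The 1.25-fold rule leaves each ratio as it is, and summing Fdps with Gm43738 changes only that of Fdps. Levels with the table's genes as the denominator are on another scale, so they could not stay and are among those that moved. Counted or not, 20 of 464 alternative ratios lay on the other side of 1 than the main ratio. They were Hmgcs1, Idi1 and Fdps in Fabp1-high cells, Hmgcs1, Sqle and Idi1 in cycling CD8 T cells, Idi1 against CD8 T cells and Fdps against dendritic cells. The count of 3 genes lower in hypoxic hepatoma cells was 3 in the 16 alternatives run, and that of 3 higher than in CD8 T cells was 3 in 11. Against macrophages the count ran from 3 to 4 and against regulatory T cells from 2 to 3; no Leiden cluster was mostly regulatory T cells, so that alternative gave none there, nor did thinning, and the shallowest UMI quartile gave none for cycling CD8 T cells. Fdps in Fabp1-high cells was at 0.907 (0.388 to 1.81) after thinning to 1000 UMIs. The count of genes higher in Fabp1-high cells, 2 in the main result, was 0 with the table's genes as denominator and 1 after thinning, without the deepest twentieth of cells, in the deepest UMI quartile and with the Fabp1 cut at 0.5; it was 3 in the second UMI quartile. For cycling hepatoma cells, 0 in the main result, it was 2 with the table's genes as denominator, after thinning, in the third UMI quartile and for cells above against below the median score, 1 with the S phase list alone and 3 at 1.25-fold. For cycling CD8 T cells, 0 in the main result, it was 1 by the mean over cells, with cells of mixed markers kept, after thinning, without the deepest twentieth and at 1.25-fold, and 2 for cells above against below the median score. After thinning, 1 gene was higher than in dendritic cells and 1 higher than in fibroblasts, against 2 and 4. The cause of these shifts was not tested, and the share of all genes counted was computed under the main setting only. The median r of 0.294 was 0.0459 after thinning to 1000 UMIs, 0.230 after thinning to 10000, 0.364 in cells of 10000 UMIs or more, and 0.155, 0.372 and 0.458 in the first, the third and the deepest UMI quartile. The settings added after seeing the data were the 1.25-fold rule, the cells without the deepest twentieth, the pooled UMI quartiles of classes, the subtraction by Afp, the other Fabp1 cuts, the split cell cycle lists, Fdps summed with Gm43738 and the thinning to 10000. With Afp as the gauge of hepatoma RNA, the Sqle ratio of hepatoma to fibroblasts went from 6.995 to 22.3 and that of Fdps to macrophages from 3.61 to 9.01. No other marker was tried as the gauge. In macrophages the median of the 14 hepatoma markers was 20.8% of their hepatoma level, against 16.6% for Afp. Few cells stood behind the regulatory T (34) and dendritic (46) values, and macrophages were the shallowest of the 6 classes (median 2747 UMIs). No paired analysis was possible because no column carries a replicate number.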
